A study of Mus musculus with 21 samples.

Results

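The effect of losing Stag2 on gene expression was compared between LSK cells and GMP of mouse bone marrow, gene by gene. All LSK and GMP libraries of the series were used, 14 of its 21 RNA-seq libraries: LSK Stag2WT (n = 4), LSK Stag2KO (n = 3), GMP Stag2WT (n = 3) and GMP Stag2KO (n = 4). Both populations were sorted from marrow that had first been depleted of lineage-positive cells, and the labels give no other allele, treatment, age or sex. How Stag2 was deleted, and in which cells, is not given in the sources used here. LSK libraries covered full transcripts (SMARTer), whereas GMP libraries were read at the 3′ end after SMART-Seq2 amplification. Population and library kit therefore cannot be told apart, and no level was compared between them: each effect is KO against WT inside 1 population, and only effects were set side by side. Of 30733 genes in the table, 9791 had enough counts to be tested in both populations.

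Cohesin is a ring-shaped complex that holds sister chromatids together and extrudes the chromatin loops through which enhancers reach promoters. Each ring carries 1 STAG subunit, either STAG1 or STAG2, and STAG2 is often mutated in myeloid malignancies. LSK cells (lineage-negative, Sca-1 and Kit positive) contain the stem cells and multipotent progenitors of the marrow. GMP are their descendants committed to granulocytes and monocytes.

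Marker genes of each label were present, with differences that bear on later results. Ly6a, which encodes Sca-1, lay between 56.5 and 210.3 CPM (counts scaled to library size) in LSK libraries. Mpo, the granule enzyme myeloperoxidase, lay between 9340 and 26530 CPM in GMP libraries, but LSK libraries carried it too (3554 to 12890 CPM). Late neutrophil markers summed to 158100 to 209100 CPM in GMP WT and 76410 to 124000 CPM in GMP KO. Primary granule genes summed to less, 47710 to 71230 and 36030 to 61700 CPM. The GMP libraries thus held much RNA of maturing neutrophils, and their make-up by cell stage was not tested. Xist was 154.4 to 320.8 CPM in LSK libraries with the Y-linked Uty at 0 in all of them, whereas every GMP library carried Uty (18.54 to 53.1 CPM), so sex also moves with population. Total counts were 22813333 to 32196233 per LSK library and 1250683 to 4401993 per GMP library. In GMP depth moved with genotype, with every KO library (1250683 to 3471881) below every WT library (3732769 to 4401993), and its part in the GMP effects was not tested beyond thinning all libraries to 1 depth, which gave 49 GMP calls, 47 of them among the 145 described below. GMP KO 4 stood apart from its replicates: its counts differed from theirs with a chi-square of 23.12 to 40.04 per degree of freedom, against 4.029 to 7.002 among the other KO libraries. GMP WT pairs lay between, at 14.28 to 30.32. LSK WT 1 differed from the other LSK WT libraries by 166.3 to 177.1, against 29.7 to 117.7 among those, and LSK KO pairs lay at 53.54 to 218.6. LSK WT 2 and LSK WT 4 carried summed late neutrophil marker levels of 11390 and 6121 CPM against 842.6 and 2223 CPM in the other LSK WT libraries.

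Stag2 itself was lower in KO LSK cells, without a clear separation in GMP. In LSK it was 187, 171.3, 148 and 158 CPM in WT and 79.88, 67.79 and 69.22 CPM in KO. The LSK groups did not overlap, and the log2 fold change was -1.20 ± 0.128 (SE; adjusted p = 0.0270, edgeR). In GMP it was 200.4, 143.1 and 98.28 CPM in WT and 94.39, 98.7, 80.87 and 150.2 CPM in KO. The GMP groups overlapped, with a log2 fold change of -0.47 ± 0.271 (adjusted p = 0.360). These counts therefore do not establish a loss of Stag2 in the GMP KO libraries. Reads at the 3′ end need not report a deletion elsewhere in the gene, but the deleted region is not given. Whether read position plays a part was not tested. The difference between the populations did not pass the test (-0.77 ± 0.326, adjusted p = 0.373). Stag1, the paralogue that can take the place of STAG2 in the ring, had positive values of 0.43 ± 0.128 in LSK and 0.57 ± 0.260 in GMP, neither past the test, and its average over both populations did not pass either (0.48 ± 0.150, adjusted p = 0.109).

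Across all 9791 genes the 2 effects agreed weakly. Pearson's r of the log2 fold changes was 0.27 and Spearman's rho 0.16, over genes that are not independent replicates. Leaving out each library in turn moved r between 0.198 and 0.308. The sign was the same for 5427 genes (55.4%), of which 3166 were higher and 2261 lower in both KO populations. The signs differed for 4364 genes, 2553 of them higher in KO LSK cells and lower in KO GMP. The median standard error was 0.172 in LSK and 0.279 in GMP, against median sizes of 0.13 and 0.32, so most single effects were of the order of their own error. Split by abundance, r was 0.32, 0.24 and 0.22 in 3 equal classes of low, middle and high mean abundance.

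Most genes called in GMP had the same sign in LSK. KO GMP had 145 calls at an adjusted p under 0.05 (45 rose and 100 fell), which is 1.45% of the 9969 genes tested. Of these, 143 were also tested in LSK, where 125 (87.4%) had the same sign, against 55.4% of all genes. GMP calls that fell matched in 94 of 100 cases, and those that rose in 31 of 43 (72.1%). In LSK, 67 of the 143 reached an unadjusted p under 0.05 (46.9%), 66 of them in the same direction, against 5.48% of all genes tested in both. Without LSK WT 2 and LSK WT 4, a choice made after the data were seen, 116 of 143 shared the sign (81.1%) and 55 reached that p. Leaving out any 1 library gave a share between 82.6 and 97.3%. Outside the myeloid, MHC class II and B cell lists the share was 86.7% of 135 genes. These lists hold few of the 143 calls, so this share could hardly move and says nothing about myeloid genes outside them.

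**Figure D1:**
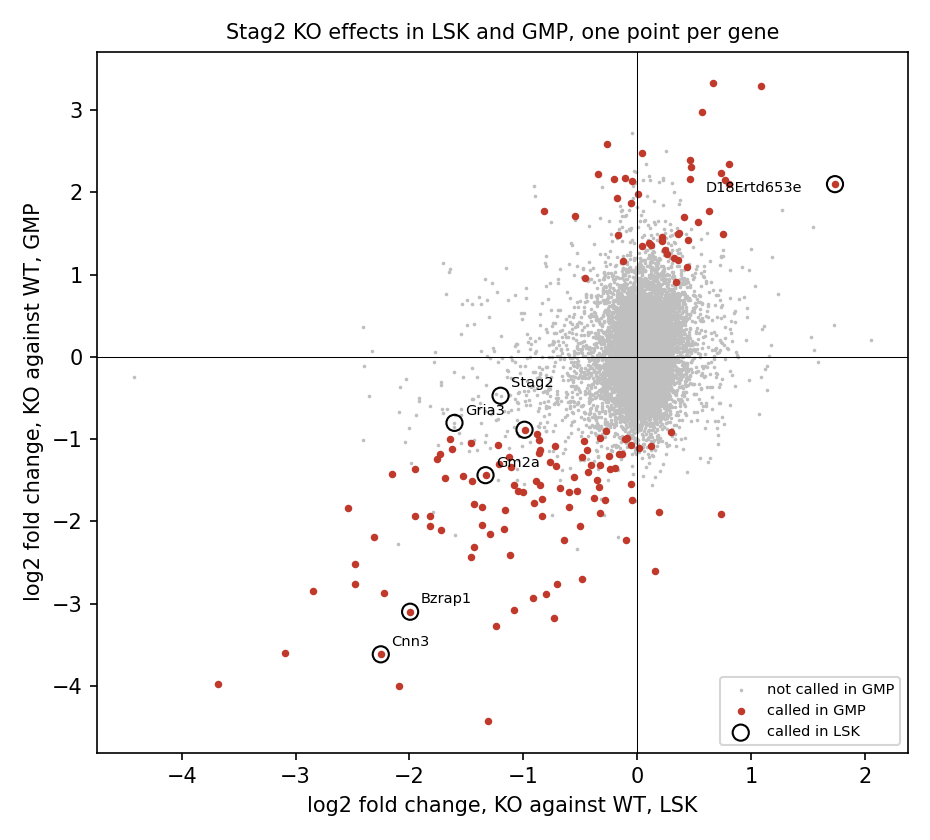
Log2 fold change of KO against WT in LSK (x axis) and GMP (y axis) for the 9791 genes tested in both. Grey points were not called in GMP, red points are the 143 genes called there, and black rings mark the 7 genes called in LSK. The red points lie mostly in the lower left quadrant, where 94 fell in GMP with a negative LSK value.

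In LSK, 14 genes were called (5 rose and 9 fell), or 0.0793% of 17664 genes tested, with 1392 at an unadjusted p under 0.05. Only 7 of these 14 had enough counts in GMP, and all 7 had the same sign there. Of the 7, 5 were called in both populations, among them Cnn3, Bzrap1 and Gm2a, which fell, and D18Ertd653e, which rose. The 5 make up 71.4% of the 7 LSK calls and 3.50% of the 143 GMP calls. Gm2a and Gria3 were named after their values were seen. The LSK calls rest on few libraries: their number was 0 without LSK WT 3 (1174 genes at an unadjusted p under 0.05) or without LSK KO 2 (1283), 2 without LSK KO 1, 4 without LSK WT 4 or LSK KO 3, 9 without LSK WT 2, and 123 without LSK WT 1.

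Cnn3 encodes calponin 3, an actin-binding protein. In LSK cells it was 23.77, 30.4, 28.21 and 25.62 CPM in WT and 5.104, 5.098 and 6.797 CPM in KO. The GMP values were 5.152, 6.034 and 6.888 CPM in WT and 1.486, 0.5624, 0 and 0.3382 CPM in KO. KO lay below WT without overlap in both, with log2 fold changes of -2.25 ± 0.185 in LSK (adjusted p = 0.00851) and -3.62 ± 0.629 in GMP (adjusted p = 0.00742). The GMP KO values are counts of 2, 2, 0 and 1, so the size of that fall is poorly fixed.

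Bzrap1, now named Tspoap1, encodes a scaffold protein that binds RIM proteins at synapses and was first described as a partner of the mitochondrial translocator protein. Its level was 41.83, 48.83, 42.43 and 54.76 CPM in LSK WT and 11.07, 16.4 and 7.912 CPM in LSK KO. It was 92.97, 91.95 and 99.87 CPM in GMP WT and 11.15, 14.62, 10.76 and 7.441 CPM in GMP KO. Here too no KO library reached a WT library, and the log2 fold changes were -1.99 ± 0.250 (adjusted p = 0.0397) and -3.10 ± 0.251 (adjusted p = 1.43e-05). KO libraries held 16.8 to 34.9% of the WT mean in LSK and 7.84 to 15.4% in GMP.

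Gm2a encodes the GM2 ganglioside activator, a lysosomal cofactor of hexosaminidase A. In LSK cells it was 313.1, 319, 422.4 and 430.5 CPM in WT and 140.4, 142.4 and 159.7 CPM in KO. In GMP it was 73.06, 89.07 and 102.8 CPM in WT and 37.16, 39.37, 35.49 and 18.6 CPM in KO. The groups stood apart in each population, at -1.33 ± 0.162 (adjusted p = 0.0369) and -1.44 ± 0.261 (adjusted p = 0.0112).

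D18Ertd653e, now named Ldlrad4, encodes a membrane protein that dampens TGF-beta signalling, and it was the single riser. It was 7.369, 4.462, 6.342 and 5.811 CPM in LSK WT and 20.06, 21.65 and 18.4 CPM in LSK KO. It was 1.873, 1.724 and 0.7947 CPM in GMP WT and 6.689, 4.218, 7.854 and 7.103 CPM in GMP KO. Every KO library exceeded every WT library of its population, and the rises were 1.74 ± 0.201 (adjusted p = 0.0349) and 2.10 ± 0.470 (adjusted p = 0.0389). The GMP values are counts of 8, 6 and 3 in WT and 9, 15, 27 and 21 in KO, so the size of that rise is poorly fixed. Other methods, other filters and leaving out libraries kept the GMP call in 6 of 12 cases. Gria3, an AMPA glutamate receptor subunit, fell in LSK (-1.60 ± 0.140, adjusted p = 0.00851) and was -0.80 ± 0.296 in GMP (adjusted p = 0.188), where 1 KO library at 54.46 CPM lay among WT libraries of 94.84, 58.33 and 41.33 CPM.

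**Figure D2:**
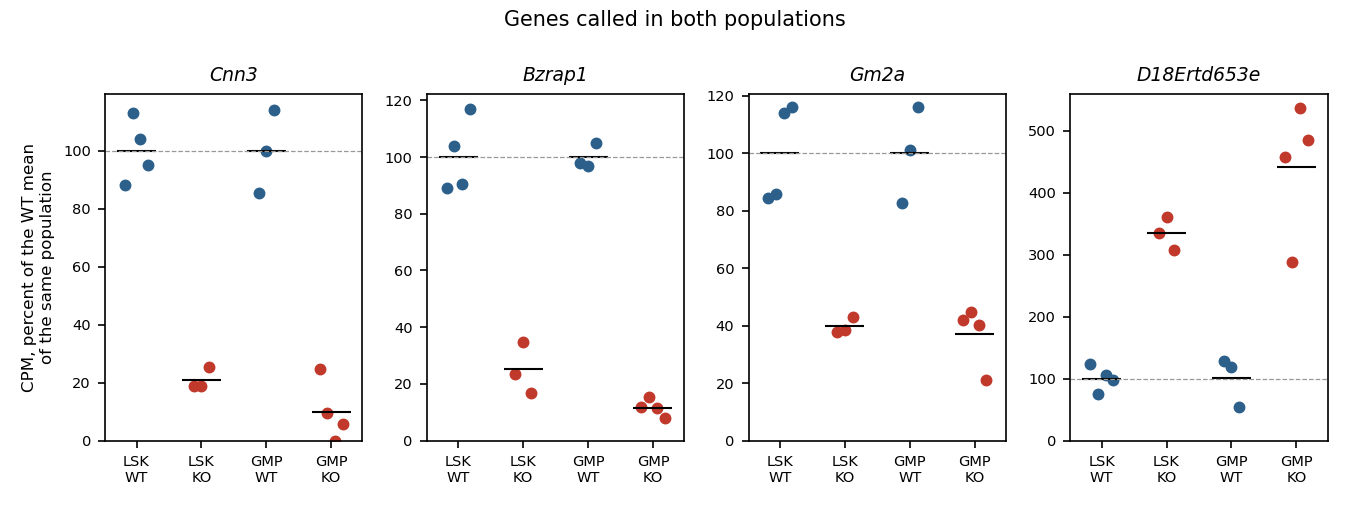
CPM of 4 genes called in both populations, as a percent of the WT mean of the same population (y axis, linear from 0), with 1 point per library and a line at each group mean. KO points lie apart from WT points in every panel, for example at 18.9 to 25.2% for Cnn3 in LSK and 307 to 361% for D18Ertd653e in LSK.

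Because Cnn3 and Gm2a fell in both populations, the stretch before their annotated starts is shown. The sequences are the 250 bases upstream on the + strand from RefSeq's promoter table (GRCm38.p6), at chr3:121426291-121426540 and chr11:55097735-55097984. Capitals mark matches, on either strand, to the core letters bound by PU.1, GAGGAA. The core of the CTCF motif and TTGCNNAA, a C/EBP motif, had no match.
Cnn3: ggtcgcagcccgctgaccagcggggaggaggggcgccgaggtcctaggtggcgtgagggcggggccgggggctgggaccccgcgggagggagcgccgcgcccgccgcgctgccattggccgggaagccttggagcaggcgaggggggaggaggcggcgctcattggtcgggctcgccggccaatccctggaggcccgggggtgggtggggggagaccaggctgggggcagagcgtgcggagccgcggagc
Gm2a: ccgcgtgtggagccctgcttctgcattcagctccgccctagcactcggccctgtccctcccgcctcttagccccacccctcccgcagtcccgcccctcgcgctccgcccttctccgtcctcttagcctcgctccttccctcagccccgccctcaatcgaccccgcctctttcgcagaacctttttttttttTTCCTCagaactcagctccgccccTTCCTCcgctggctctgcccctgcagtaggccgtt
The Gm2a stretch holds 2 matches to GAGGAA, read on the opposite strand, and the Cnn3 stretch none. Windows of 300 bases (250 before to 50 after the start) were then searched for the genes of the averaged effect described next. GAGGAA was found in 30 of 106 windows of genes that fell (28.3%) and 15 of 49 of those that rose (30.6%), against 28.3% of all 27025 promoters and 26.8% of the 7735 matched genes tested in both. The CTCF core was found in 4 of 106 and 1 of 49, against 0.903% of all promoters and 1.33% of those tested. TTGCNNAA was found in 8 of 106 and 2 of 49, against 10.8% and 8.27%. A match describes letters, not a bound site.

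The average of both effects, fitted over all 14 libraries, called 208 of 9791 genes (2.12%). Of these, 64 rose (0.654%) and 144 fell (1.47%). They include all 7 LSK calls tested in both and 109 of the 143 GMP calls (76.2%), while 97 were called in neither population alone. Of the 208, 117 had an unadjusted p under 0.05 with the same sign in both populations, and 103 had an unadjusted interaction p under 0.05, so an average can rest mostly on 1 population. Genes with an unadjusted p under 0.05 in both populations numbered 182, of which 164 shared their sign (55 higher and 109 lower in KO). These are 30.5% of the 537 such genes in LSK and 9.40% of the 1744 in GMP.

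Of the genes that fell by the averaged test, Actn1 and Gpc1 act in the cytoskeleton and at the cell surface. Actn1, which encodes the actin crosslinker alpha-actinin 1, was 10.73, 11.8, 10.82 and 10.31 CPM in LSK WT and 5.876, 5.897 and 8.261 CPM in LSK KO. GMP libraries gave 237.4, 277.6 and 244.8 CPM in WT and 104.8, 90.26, 104.4 and 102.8 CPM in KO. No KO library overlapped a WT library, and the average change was -1.04 ± 0.117 (adjusted p = 6.01e-05). Gpc1, a glypican that carries heparan sulphate at the cell surface, was 60.32, 54.71, 100.5 and 65.03 CPM in LSK WT and 19.94, 28.53 and 29.7 CPM in LSK KO. Its GMP values were 400.9, 476.1 and 632.9 CPM in WT and 113.7, 94.2, 102.7 and 96.06 CPM in KO. Again the groups did not overlap, and Gpc1 fell by 1.89 ± 0.161 on average (adjusted p = 2.62e-06).

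Among enzymes and survival genes, Gpx3, a secreted glutathione peroxidase, was 5.673, 17.39, 18.8 and 22.88 CPM in LSK WT and 1.454, 3.576 and 1.743 CPM in LSK KO. It was 20.61, 22.7 and 30.73 CPM in GMP WT and 4.459, 3.093, 4.072 and 2.368 CPM in GMP KO. The 2 log2 fold changes, -2.84 ± 0.523 and -2.85 ± 0.320, were almost equal, with an average of -2.88 ± 0.321 (adjusted p = 6.01e-05). Bcl2l1, which encodes the survival protein BCL-XL, was -0.60 ± 0.199 in LSK and -1.83 ± 0.258 in GMP, an average of -1.23 ± 0.157 (adjusted p = 0.000138). Fgl2, a fibrinogen-like protein, averaged -1.40 ± 0.177 (adjusted p = 0.000138), and Ap1s2, a clathrin adaptor subunit, -1.20 ± 0.177 (adjusted p = 0.000679). The glycosyltransferase gene B3gnt8 averaged -0.94 ± 0.119 and Glipr2 -1.31 ± 0.165 (adjusted p = 0.000138 for each). For these 5 genes no KO library reached a WT library in either population. They were picked by their effects in these same libraries, so groups that lie apart are no further support. The same holds wherever a gene picked by its effect is said not to overlap. The share of such genes over all genes is not given here.

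Further falls had few reads in KO GMP. Fam20c, a kinase of the secretory pathway, was 4.402, 3.878, 4.642 and 4.011 CPM in LSK WT and 1.662, 1.56 and 1.882 CPM in LSK KO. Its GMP KO counts were 2, 1, 1 and 0 against 8.196, 8.333 and 9.272 CPM in WT. Tmem215 had GMP KO counts of 0, 4, 0 and 0, against 4.683, 3.448 and 5.828 CPM in WT, and in LSK it was 0.3561 to 1.115 CPM in KO and 4.087 to 8.021 CPM in WT. The average changes were -2.94 ± 0.319 for Fam20c (adjusted p = 6.01e-05) and -3.42 ± 0.435 for Tmem215 (adjusted p = 0.000138). Tmem119 averaged -1.73 ± 0.244 and Cenpv, a protein of centromeric chromatin, -1.95 ± 0.279 (adjusted p = 0.000485 and 0.000499).

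Of the genes that rose by the averaged test, Bex6 was 49.33, 41.53, 42.5 and 52.38 CPM in LSK WT and 82.91, 82.56 and 69.82 CPM in LSK KO. In GMP it was 11.24, 9.482 and 8.477 CPM in WT and 20.07, 28.68, 20.07 and 40.25 CPM in KO. KO exceeded WT in every library, with an average of 1.11 ± 0.163 (adjusted p = 0.000653). Dnajc6, which encodes the clathrin-uncoating factor auxilin, was 25.11, 21.85, 28.47 and 25.58 CPM in LSK WT and 35.64, 36.14 and 45.84 CPM in LSK KO. Its GMP values were 4.449, 4.31 and 3.974 CPM in WT and 14.12, 14.06, 15.13 and 15.22 CPM in KO. These groups were also apart, and the average was 1.19 ± 0.142 (adjusted p = 8.83e-05).

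Several further risers act in the nucleus. H2afy2, the gene of the histone variant macroH2A2, averaged 1.45 ± 0.267 (adjusted p = 0.00493), from 0.80 ± 0.237 in LSK and 2.10 ± 0.502 in GMP. The zinc finger gene Zfp827 averaged 2.21 ± 0.369 (adjusted p = 0.00195). Tcf4, the E protein that specifies plasmacytoid dendritic cells, averaged 1.04 ± 0.192 (adjusted p = 0.00506), but GMP KO 4 at 244.5 CPM lay far above the other KO libraries at 98.1 to 111.6 CPM. Tcf7l2, a transcription factor of Wnt signalling, averaged 1.43 ± 0.270 (adjusted p = 0.00590). Of the remaining risers, Rnf125, a ubiquitin ligase, averaged 0.61 ± 0.112 (adjusted p = 0.00514), Ptms, or parathymosin, 1.07 ± 0.173 (adjusted p = 0.00143), and Pde5a, a cGMP phosphodiesterase, 1.57 ± 0.303 (adjusted p = 0.00678). Some of these rises start from few reads in GMP WT. The counts there were 2, 4 and 0 for Zfp827 and 3, 9 and 13 for H2afy2. They were 8, 12 and 3 for Tcf7l2 and 15, 1 and 5 for Pde5a, so the sizes are poorly fixed. In LSK, KO overlapped WT for H2afy2, Tcf7l2 (0.46 ± 0.212) and Pde5a, but not for the other genes of this paragraph.

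Only 5 genes had effects that differed between the populations past the threshold, 0.0511% of 9791, with 1189 at an unadjusted p under 0.05. For 4 of them, Sdc2, Fam46a and Snord13 included, the KO effect was more negative in LSK than in GMP, and for Basp1 more positive. The size of such a difference that this design picks up is large. In simulated counts the test called 84.8% of genes with a 4-fold difference, 10.4% with a 2-fold and 1.49% with a 1.5-fold difference. It also called 6 unchanged genes beside 64 changed ones. The 5 calls were close to the threshold, and leaving out 1 library gave between 0 and 9 calls. The count was 0 without LSK WT 2 (937 genes at an unadjusted p under 0.05), LSK WT 4 (913), LSK KO 1 (1093), LSK KO 3 (755), GMP WT 1 (1893), GMP WT 2 (907) or GMP WT 3 (851). It was 2 without LSK WT 3, LSK KO 2, GMP KO 2 or GMP KO 4, 3 without GMP KO 3 and 9 without GMP KO 1, and DESeq2 gave 48.

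Sdc2, which encodes the cell surface proteoglycan syndecan-2, had opposite signs. In LSK it was 11.12, 15.01, 13.83 and 16.08 CPM in WT and 8.902, 6.544 and 8.365 CPM in KO. For GMP the values were 2.576, 3.448 and 3.974 CPM in WT and 12.63, 11.25, 6.69 and 15.56 CPM in KO. KO was below WT in every LSK library and above it in every GMP library. The LSK value was -0.82 ± 0.202 (adjusted p = 0.265), the GMP rise 1.77 ± 0.389 (adjusted p = 0.0379), and the difference -2.65 ± 0.439 (adjusted p = 0.0301). Its adjusted p ran up to 0.309 under the alternatives, with 8 of 24 keeping the call.

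Fam46a, now named Tent5a, encodes a poly(A) polymerase, and was called in neither population alone. It was 52.85, 67.26, 61.65 and 69.33 CPM in LSK WT and 21.54, 34.51 and 24.19 CPM in LSK KO. In GMP it was 130.7, 94.82 and 102.8 CPM in WT and 162.8, 154.1, 175.1 and 264.8 CPM in KO. The groups were apart in opposite directions: -1.23 ± 0.187 in LSK (adjusted p = 0.0942) and 0.79 ± 0.243 in GMP (adjusted p = 0.122). The difference of -2.07 ± 0.322 (adjusted p = 0.0301) kept its call under 15 of 25 alternatives, the most of the 5.

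Snord13, a small nucleolar RNA, was between 0.5341 and 1.637 CPM in LSK libraries, where WT (0.9455, 1.209, 0.8499 and 1.637 CPM) and KO (0.5341, 0.7609 and 1.081 CPM) overlapped. Its GMP levels were 103, 99.99 and 125 CPM in WT and 254.9, 456.4, 357.5 and 359.2 CPM in KO, a rise of 1.71 ± 0.242 (adjusted p = 0.00144). The difference was -2.30 ± 0.390 (adjusted p = 0.0301), a call that 7 of 23 alternatives kept (adjusted p up to 0.282). Basp1, a membrane-bound signalling protein, was 34.53, 42.95, 39.88 and 38.84 CPM in LSK WT and 39.68, 51.36 and 43.22 CPM in LSK KO. In GMP it was 6.323, 9.77 and 6.358 CPM in WT and 2.973, 2.25, 1.454 and 1.691 CPM in KO, a change of -1.89 ± 0.424 (adjusted p = 0.0389). Basp1 was thus lower in every KO GMP library and overlapped WT in LSK, with a difference of 2.06 ± 0.371 (adjusted p = 0.0498). Only 5 of 23 alternatives kept this call (adjusted p up to 0.308). Its GMP KO values are counts of 4, 8, 5 and 5, so the size of that fall is poorly fixed.

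**Figure D3:**
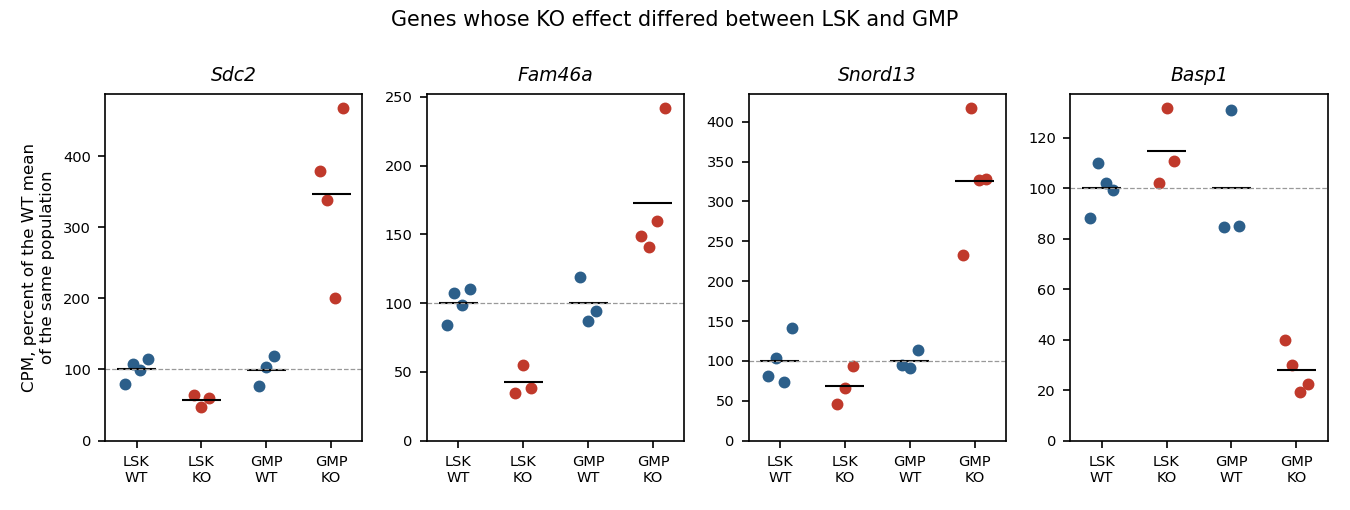
CPM of 4 genes whose KO effect differed between the populations, as a percent of the WT mean of the same population (y axis, linear from 0), with 1 point per library and a line at each group mean. For Sdc2, KO libraries hold 46.7 to 63.5% of the WT mean in LSK and 201 to 467% in GMP, while for Fam46a they hold 34.3 to 55.0% in LSK and 141 to 242% in GMP.

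Of the 143 GMP calls, 18 had the opposite sign in LSK, and Sdc2 was the only one with an unadjusted LSK p under 0.05. Other genes had the same sign but unequal size. Gbp2, an interferon-induced GTPase, was 0.47 ± 0.119 in LSK and rose by 2.31 ± 0.474 in GMP, from WT counts of 3, 4 and 8. Its difference did not pass the test (-1.92 ± 0.391, adjusted p = 0.108), nor did the larger one of Fam20c (3.18 ± 0.671, adjusted p = 0.125). Ifitm1, an interferon-induced membrane protein, was -0.73 ± 0.284 in LSK and fell by 3.17 ± 0.482 in GMP (difference 2.44 ± 0.563, adjusted p = 0.168).

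Groups of related genes were then followed in both populations. Among 22 lists none had an interaction call. Over all genes only 0.0511% had one, so lists of this size need not hold any. The T and NK cell list had 0 members tested in both and could give none. The cohesin list (16 genes tested) had 11 members with positive values in both, against 3166 of all 9791 genes. Its medians were 0.11 in LSK and 0.23 in GMP, against 0.04 and 0.01 over all genes. Single libraries moved them: the GMP median was 0.54 without GMP WT 1 and 0.07 without GMP WT 3, and the LSK median ran from 0.06 without LSK WT 4 to 0.19 without LSK WT 1. Stag2 was its only averaged call, and it fell (-0.85 ± 0.163, adjusted p = 0.00641). Esco1, an acetyltransferase that locks cohesin on chromatin, was -0.01 ± 0.157 in LSK and 0.99 ± 0.306 in GMP (difference -1.05 ± 0.366, adjusted p = 0.330), with GMP KO 4 at 56.82 CPM above the other KO libraries (27.93 to 30.93 CPM).

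Granule and monocyte genes were compared next. Of 18 primary granule genes, 10 had negative values in both (55.6%, against 23.1% of all genes), with medians of -0.53 in LSK and -0.06 in GMP. The count was 7 of 18 (38.9%) without GMP KO 4, or without GMP KO 1 and GMP KO 4, and the GMP median turned to just above 0 without GMP KO 2 or GMP KO 4. The LSK median was -0.86 without LSK KO 2, -0.35 without LSK WT 4 and -0.23 without LSK WT 2 and LSK WT 4. In this list 2 fell by the averaged test, against 1.47% of all genes. These were Serpinb1a, an inhibitor of neutrophil serine proteases (-1.34 ± 0.171, adjusted p = 0.000138), and Hk3, a hexokinase of myeloid cells (-1.24 ± 0.176, adjusted p = 0.000485). Serpinb1a was 373.5, 619.2, 408.4 and 614 CPM in LSK WT and 276.8, 261.5 and 218 CPM in LSK KO. GMP libraries stood at 876.7, 877 and 725.3 CPM in WT and 281.7, 330.7, 263.5 and 183 CPM in KO, so KO lay below WT throughout. Ms4a3, a membrane protein of GMP, pointed in opposite directions without passing the test (-1.30 ± 0.395 in LSK, 0.49 ± 0.290 in GMP, difference adjusted p = 0.286).

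Of 20 monocyte genes, 16 had negative values in both (80%, against 23.1% of all genes), with medians of -0.78 and -0.54. By the averaged test 3 fell, against 1.47% of all genes. These were Klf4, a transcription factor of monocyte differentiation (-1.33 ± 0.213, adjusted p = 0.00132), Ms4a6c (-1.15 ± 0.217, adjusted p = 0.00590) and Fn1, fibronectin (-1.87 ± 0.378, adjusted p = 0.0104). Without LSK WT 2 and LSK WT 4 the LSK median was -0.49 and 14 of 20 were negative in both. In bulk RNA, fewer cells of a type and less RNA per cell cannot be told apart. Summed monocyte markers were 1226 to 3302 CPM in LSK WT and 1132 to 2016 CPM in LSK KO, and 3120 to 4420 against 2403 to 2818 CPM in GMP. Their part in the averaged falls was not tested.

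In the late neutrophil list 15 of 20 members were negative in both (75%, against 23.1% of all genes), with medians of -1.23 in LSK and -0.68 in GMP. Both medians stayed negative without any single library, but the LSK median was -0.29 without LSK WT 2, with 13 of 20 negative in both. Without LSK WT 2 and LSK WT 4 together the LSK median turned to 0.37 and 12 of 20 members were positive in LSK and negative in GMP, while the GMP median stayed at -0.68. Summed levels were 158100 to 209100 CPM in GMP WT and 76410 to 124000 CPM in GMP KO, without overlap. In LSK they were 842.6 to 11390 CPM in WT and 1325 to 2684 CPM in KO. Averaged falls were called for Padi4, the enzyme that citrullinates histones in neutrophils (-0.61 ± 0.151, adjusted p = 0.0409), Pglyrp1, a peptidoglycan-binding granule protein (-1.09 ± 0.270, adjusted p = 0.0400), and Ifitm6 (-1.92 ± 0.454, adjusted p = 0.0308). Over all genes 1.47% fell by the averaged test. The calls of these list members were close to the threshold: 6 of 24 alternatives kept that of Padi4 (adjusted p up to 0.196), 9 of 25 that of Pglyrp1 (up to 0.191) and 12 of 24 that of Ifitm6 (up to 0.165). For Padi4 only GMP separated, with 16.16, 20.4 and 12.98 CPM in WT and 5.946, 8.436, 8.727 and 7.103 CPM in KO, and its LSK value was -0.09 ± 0.166.

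Among 18 regulators of myeloid cells, 10 were negative in both (55.6%, against 23.1% of all genes). The medians were -0.22 and -0.10, the latter -0.17 without GMP WT 1 and -0.02 without GMP WT 3. By the averaged test 2 fell, against 1.47% of all genes. Gfi1, a repressor needed for neutrophil differentiation, averaged -0.78 ± 0.165 (adjusted p = 0.0150), and Klf5 -0.89 ± 0.227 (adjusted p = 0.0481), a call that 5 of 23 alternatives kept. Cebpe, the factor of late granulocyte differentiation, was -1.10 ± 0.441 in LSK and -0.04 ± 0.208 in GMP (difference adjusted p = 0.379).

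In the lists of earlier and non-myeloid cells few genes were called. Over all genes 0.654% rose and 1.47% fell by the averaged test. The 11 stem cell genes tested had medians of 0.07 in LSK (0.01 without LSK WT 4 to 0.25 without LSK WT 1) and 0.43 in GMP (0.24 without GMP WT 3 to 0.50 without GMP KO 1). Msi2, which binds RNA and sustains stem cell renewal, rose on average (0.82 ± 0.197, adjusted p = 0.0328), a call that 14 of 25 alternatives kept (adjusted p up to 0.165). In GMP Msi2 was 22.48, 18.1 and 18.28 CPM in WT and 31.21, 40.49, 43.92 and 99.11 CPM in KO, the last being GMP KO 4. The 10 lymphoid genes had medians of -0.01 and 0.44, and the LSK median had no fixed sign (-0.11 without LSK WT 4, 0.08 without LSK WT 1). In this list Satb1, a chromatin organiser of lymphoid progenitors, rose (0.74 ± 0.179, adjusted p = 0.0338), a call that 12 of 25 alternatives kept, and 1 member fell. Fli1, a factor of megakaryocytes, rose by 0.50 ± 0.122 (adjusted p = 0.0400), which 12 of 25 alternatives kept. In the interferon list Gbp2 rose (1.40 ± 0.192, adjusted p = 0.000362), while Ifitm1 (-2.00 ± 0.274, adjusted p = 0.000343) and Ifitm3 (-0.80 ± 0.183, adjusted p = 0.0242) fell, with the 15 tested members split 6 positive and 5 negative in both.

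Immediate early and heat shock genes, which respond within minutes to stimulation or stress, had opposite signs in the 2 populations. Of 18 tested, 14 were positive in LSK and negative in GMP (77.8%, against 26.1% of all genes), with medians of 0.28 and -0.44. No member was called in either population or for the difference. Summed over the list, LSK libraries were at 7818, 9648, 7956 and 6985 CPM in WT and 9678, 12240 and 9039 CPM in KO. GMP libraries were at 1530, 1427 and 1282 CPM in WT and 1187, 990.6, 1094 and 1099 CPM in KO. The GMP groups did not overlap and the LSK groups did. Hspa1b, an inducible HSP70 gene with a near-identical copy, was 0.62 ± 0.247 in LSK and -1.28 ± 0.562 in GMP, and Dusp1, a MAP kinase phosphatase, 0.27 ± 0.241 and -0.80 ± 0.368 (difference adjusted p = 0.318 and 0.361). The split was 16 of 18 without LSK WT 2 and LSK WT 4, and 10 of 18 without LSK KO 2, where 6 of 18 were negative in both and the LSK median was 0.11. The LSK median was 0.46 without LSK WT 2 alone.

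S phase and ribosome biogenesis genes were split the same way by smaller medians, which did not hold without those 2 LSK libraries. In S phase 13 of 23 members were positive in LSK and negative in GMP (medians 0.18 and -0.14), against 26.1% of all genes. It was 6 of 23 without LSK WT 2 and LSK WT 4. In ribosome biogenesis it was 12 of 20 (medians 0.07 and -0.18), and 5 of 20 without them. None of these members was called. Mast cell, basophil and eosinophil genes (12 tested) had medians of -0.80 in LSK and 0.25 in GMP, again with no averaged or interaction call. The LSK median was -0.28 without LSK WT 4 and 0.02 without LSK WT 2 and LSK WT 4, and the GMP median lay between 0.00 without GMP WT 2 and 0.46 without GMP WT 3. Mcpt8, a basophil protease, was 137 CPM in LSK WT 4 against 23.34 to 34.28 CPM in the other LSK WT libraries. The other lists, MHC class II, mature B cell, T and NK cell, dendritic, erythroid, Hox, NF-kB, G2/M and p53, added Tcf4 as their only averaged call. Over all genes 2.12% had an averaged call. Members tested in both numbered 0 for T and NK cell, 3 each for mature B cell and Hox, 4 for dendritic and 5 for MHC class II. The absence of calls there says little about those genes. The numbers were 14 for erythroid, 11 for NF-kB, 22 for G2/M and 12 for p53.

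**Figure D4:**
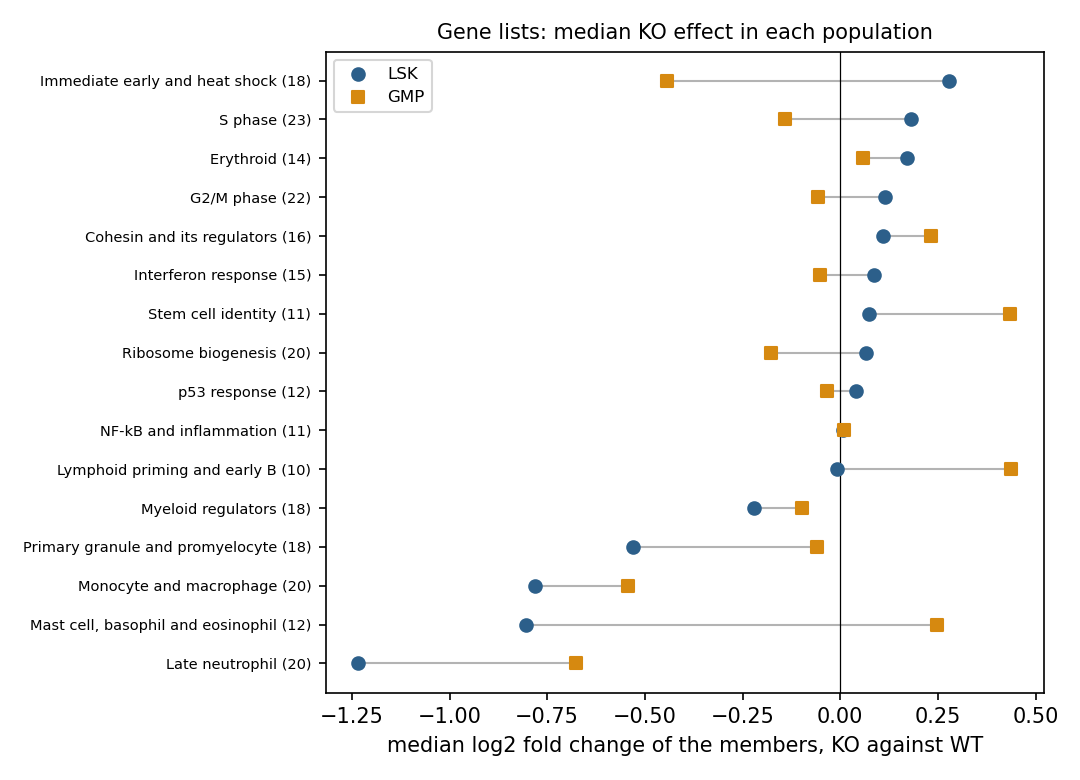
Median log2 fold change of KO against WT in LSK (blue circles) and GMP (orange squares) for the lists with 10 or more members tested in both; the number tested follows each name. Late neutrophil and monocyte medians are negative in both, whereas the immediate early and heat shock medians have opposite signs (0.28 and -0.44).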

How the data were processed

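Deposited values were whole-number counts per gene, made by the authors with STAR 2.4 and HTSeq 0.6.1 on mm9, per the submitters' processing notes, which also name DESeq2. Neither annotation nor strand setting is given in the sources used here, hence overlapping, antisense and near-identical genes (Hspa1b, the Ifitm genes, the globins) are uncertain. Groups came from the labels, which name no separate animals for the replicates. The p-values therefore reflect spread among libraries, part of which may be technical. No replicate pair agreed within sampling noise (chi-square per degree of freedom at least 4.029).

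KO was compared with WT in each population with edgeR 4.0.16 in R 4.3.3: filterByExpr (minimum count 10, minimum total count 15), TMM, the quasi-likelihood test and p-values adjusted by Benjamini and Hochberg (threshold 0.05). The average and the difference (LSK effect minus GMP effect) came from 1 fit of all 14 libraries, with TMM factors from each population alone and genes that passed both filters. SE is the log2 fold change over the root of the F statistic. CPM are TMM-scaled. In simulations with 200 changed genes the average test called 29.9%, 79.1% and 98.5% of 1.5-, 2- and 4-fold changes (9574 genes). It also called 15 unchanged genes beside 138 changed ones, and the difference test 6 beside 64. In both cases this is a larger share of false calls than the threshold of 0.05 stands for. Alternatives were DESeq2 1.42.0, limma-voom 3.58.1, other filters, scalings and thinning to 1250683 counts, a replicate block, and leaving out libraries. Promoters of 49 of 64 risers and 106 of 144 fallers matched the RefSeq table.

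The members, the lists (442 of 444 distinct members are in the table) and the comparisons were chosen with earlier results of these data known. Named were Stag2 and Stag1, all genes called in both populations, up to 10 per direction called in 1 and at an unadjusted p under 0.05 with the same sign in the other (5 with opposite signs), the 10 strongest averaged calls per direction with a mean of at least 5 CPM, all interaction calls, and per list the 2 members with the smallest interaction p and up to 2 calls. Symbols starting with Gm and a digit were counted only, and other named genes were chosen after their values were seen. Some of the genes picked this way are left out of the text.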

Additional observations from a re-analysis of the deposited data

Results flagged for a closer look

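In groups of 4 libraries, the gap of the highest or lowest library to its nearest neighbour was set against the whole range of the group. Of 164 groups examined, 14 had a library that stood apart, 5 in LSK WT and 9 in GMP KO. By chance about 1 in 20 groups would be picked out.

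GMP KO 4 stood highest among KO GMP for Tcf4 (244.5 CPM against 98.1 to 111.6 in the others), Slbp (152.5 against 26.99 to 34.62), Wdr12 (259.1 against 130.8 to 150.1), Esco1 (56.82 against 27.93 to 30.93), Rel (55.47 against 24.46 to 29.09) and Tmem71 (33.49 against 20.07 to 22.3). GMP KO 2 was lowest for Actn1 (90.26 against 102.8 to 104.8) and the only KO GMP library with reads of Tmem215 (1.125), and GMP KO 1 was highest for Dusp1 (8.175 against 4.072 to 4.499). LSK WT 2 was highest among LSK WT for Hspa1b (747.5 against 428.6 to 477.9), Ifitm1 (178.1 against 116.6 to 123.7), Cenpv (38.57 against 27.62 to 29.28) and Tmem71 (37.61 against 31.88 to 32.38). LSK WT 4 was highest for Mcpt8 (137 against 23.34 to 34.28).

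The KO effect differed between LSK and GMP, by the interaction test of edgeR, for Basp1 (2.06), Fam46a (-2.07), Sdc2 (-2.65) and Snord13 (-2.30), as log2 LSK effect minus GMP effect. The call was kept by 5 of 23 alternatives for Basp1, 15 of 25 for Fam46a, 8 of 24 for Sdc2 and 7 of 23 for Snord13.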

How the results depend on the processing

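Counts of calls moved widely with the processing, while no gene given with a test changed direction past the threshold under the settings run. DESeq2 gave 342 calls in LSK, 300 in GMP, 48 for the difference and 468 for the average, and limma-voom with quality weights 22, 1264, 147 and 715. With counts thinned to the shallowest library they were 0 (619 at an unadjusted p under 0.05), 49, 3 and 62. Without a filter LSK had 38 and GMP 601 calls, the correlation of effects fell to 0.051 and the same-sign share among GMP calls to 71.3% (65.1% with limma-voom). A minimum count of 50 gave 68 calls in GMP, 2 for the difference and 108 for the average. Filtering over all 4 groups left 0 difference calls of 16288 genes (1666 at an unadjusted p under 0.05), and giving each population its own spread left 1.

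Deviations of same-numbered KO and WT libraries correlated without a fixed sign (r = -0.0753, -0.0814 and 0.271 in LSK, and -0.163, 0.173 and 0.258 in GMP). With so few libraries these values cannot exclude a batch shared by a pair. The LSK column headers carry further numbers that run close together for some KO and WT libraries, and their meaning is not given. With the replicate number as a block the calls were 0 in LSK (902 at an unadjusted p under 0.05), 325 in GMP, 1 for the difference and 147 for the average. Not every sample correlated best with its own number.

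Leaving out each library gave 0 to 123 calls in LSK, 38 to 211 in GMP, 0 to 9 for the difference, 106 to 362 for the average, r of 0.198 to 0.308 and a same-sign share of 82.6 to 97.3%. GMP had 43 calls without GMP WT 2, 38 without GMP WT 3 and 62 without GMP KO 3. The average had 362 without LSK WT 1, 125 without LSK KO 1, 106 without GMP WT 2 and 131 without GMP WT 3. Excluding LSK WT 2 and LSK WT 4 together, chosen after seeing the data, left 1 LSK call and 0 for the difference (832 at an unadjusted p under 0.05). Excluding GMP KO 1 and GMP KO 4 left 0 for the difference (817) and 138 for the average. The causes were not tested. The GMP depth limits genes below about 10 counts per library, such as Cnn3, Fam20c and Basp1 in KO GMP.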
